A study of Cavia porcellus with 34 samples.

Results

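The axon guidance genes are described here across 3 generations of female guinea pigs whose ancestor had been treated with synthetic glucocorticoid (sGC) during pregnancy. Members were chosen by gene symbol alone, as the Eph receptors, ephrins, class 3 to class 7 semaphorins, plexins, neuropilins, Robo receptors, Slits, netrins, UNC5 receptors and DCC. They numbered 62 of 12114 genes in the F1 table, 60 of 12207 in F2 and 61 of 12068 in F3, and 60 were in all 3 tables. With a mean of at least 10 normalized counts, the limit used for testing, 62 members were tested in F1, 60 in F2 and 60 in F3.

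The tissue was a micropunch of the anteromedial hypothalamus that holds the paraventricular nucleus (PVN), the centre that drives the HPA axis, and it can include bordering regions. Pregnant F0 animals received the sGC betamethasone (labelled Beta) or the saline vehicle (Veh, labelled Control). F1 offspring were exposed in utero, and F2 and F3 descended from F1 and F2 males mated with untreated animals. All animals analysed were females of this paternal line on postnatal day 40, 5 per treatment in F1 and in F2 and 6 per treatment in F3. In F3, sGC animals 21 and 22 formed the second sequencing batch, and the other 10 animals the first. The labels name no litters, so the p-values measure the spread between these animals. Animals are named by their label numbers.

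Eph receptors are receptor tyrosine kinases whose ligands, the ephrins, sit on the membrane of the neighbouring cell, and contact between them commonly repels growing axons. Secreted class 3 semaphorins act through neuropilins, which bind the ligand, and plexins, which carry the signal inward, whereas most other semaphorins are membrane bound and use plexins directly. Slits repel axons through Robo receptors, and netrins attract them through DCC or repel them through UNC5 receptors. In the postnatal brain many of these proteins remain at synapses, on glia and on blood vessels.

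Values are normalized counts as deposited, after removal of unwanted variation estimated from the residuals, and they are not raw reads. The normalization narrows the spread between animals of a group. Totals per animal were 15.57 to 21.94 M (mega) in F1, 15.65 to 19.44 M in F2 and 18.69 to 18.98 M in F3, so F1 and F2 comparisons also hold differences in totals, and a second scale divides each animal by a median-of-ratios size factor (0.848 to 1.20 in F1). In F1, sGC animals 4, 8 and 20 stood apart, with summed levels of 9 PVN neuroendocrine markers of 29219, 39205 and 52694 normalized counts, against 156892 and 197398 in the other 2 sGC animals and 100877 to 226859 in Veh. The F1 counts, and the single values that turn direction, are therefore also given without these 3 animals. In bulk tissue, fewer cells of a type and less RNA per cell cannot be told apart.

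More members were higher than lower in sGC in F1, and fewer in F2 and F3. In F1, 50 of 62 were higher (80.6%, against 63.8% of all genes tested), with a median log2 fold change of 0.20 against 0.07 for all genes, and after size-factor scaling 0.14 against 0.00. Without sGC animals 4, 8 and 20, 49 of 62 were higher (79.0%, against 70.1% of all genes), with a median of 0.21 against 0.10. For F2, 40 of 60 were lower (66.7%, against 75.5% of all genes), with a median of -0.08, the same as the -0.08 of all genes, and after scaling 31 of 60 were lower. For F3, 40 of 60 were lower (66.7%, against 51.0% of all genes), with a median of -0.05 against 0.00. Log2 fold changes are sGC minus Veh on the log2(value + 1) scale.

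**Figure D1:**
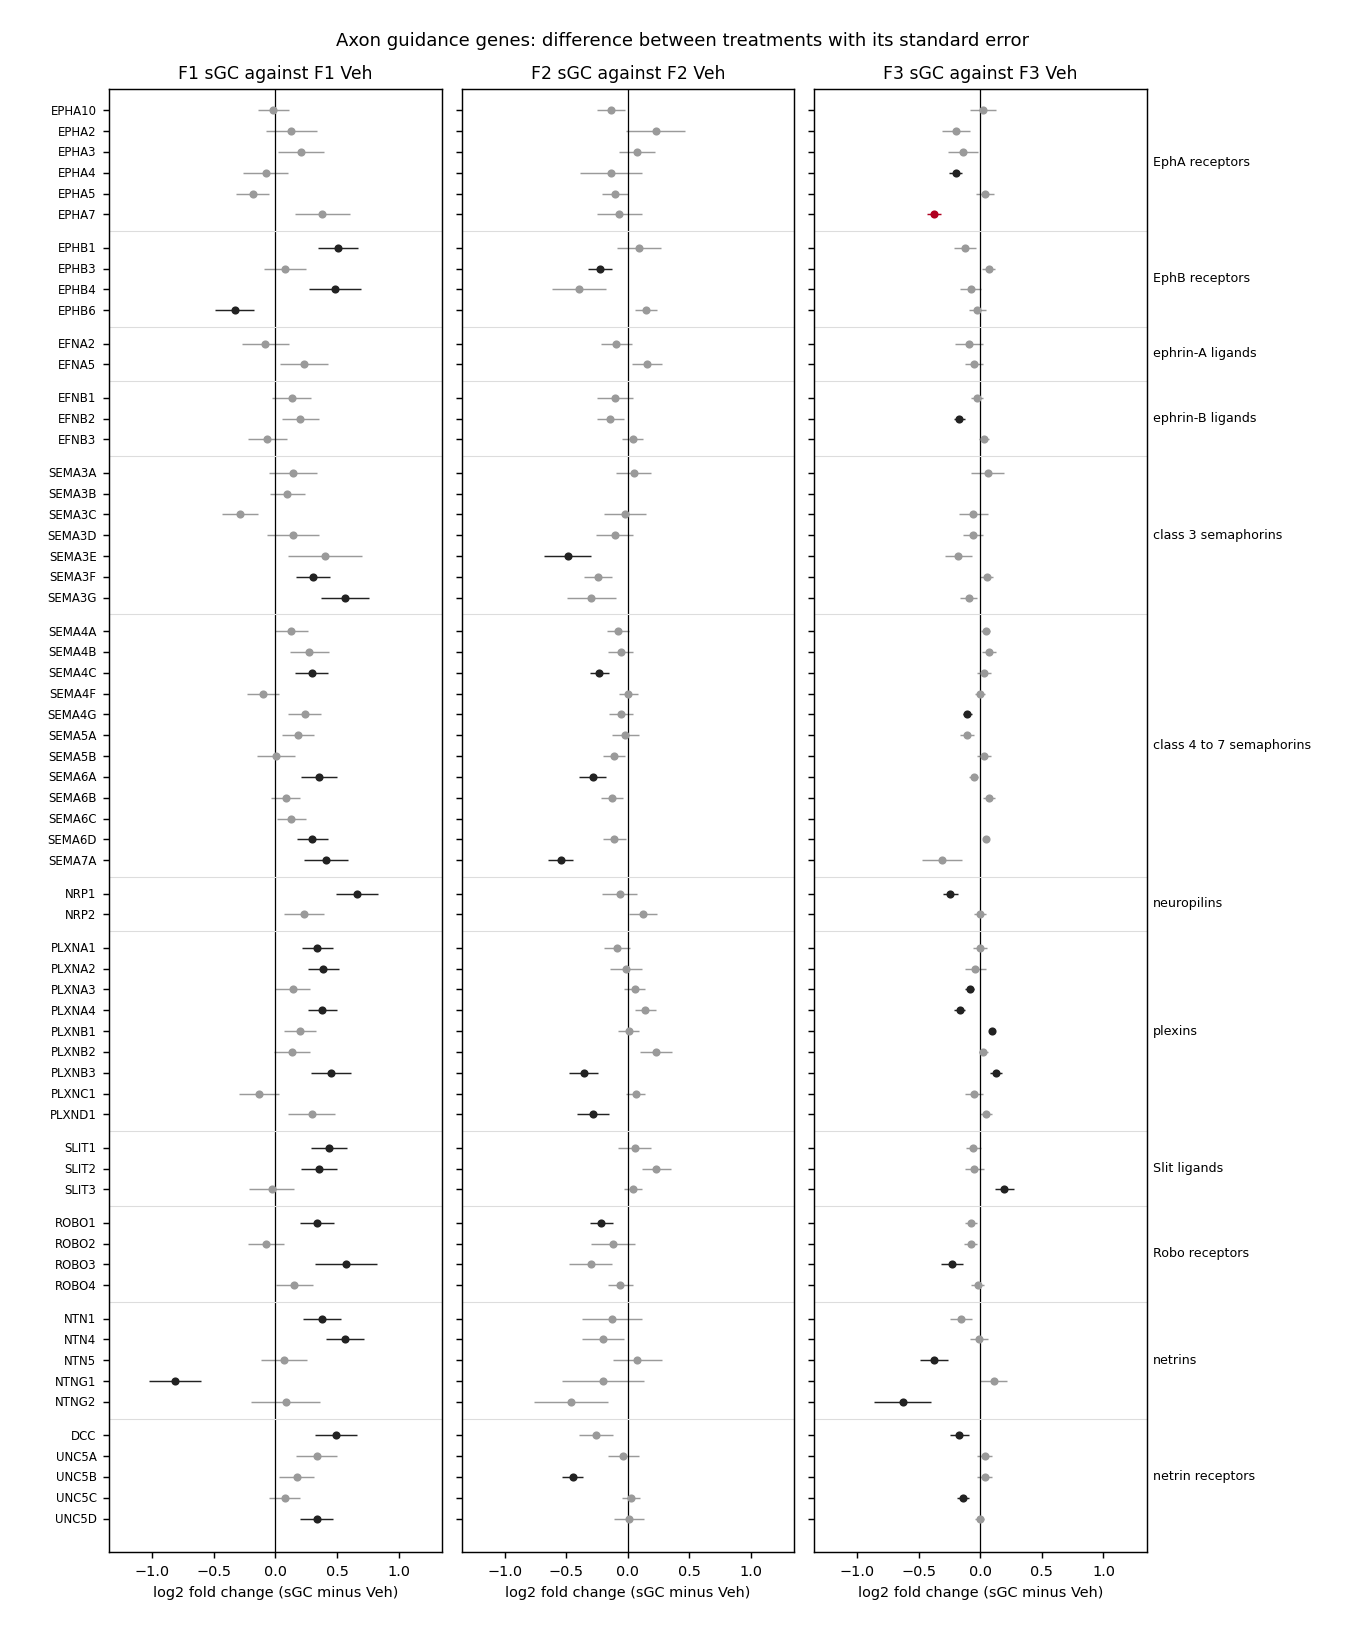
Log2 fold change (sGC minus Veh, on the log2(normalized counts + 1) scale) of each tested member with its standard error, by family, in F1, F2 and F3. Red marks an adjusted p under 0.05 (limma), black an unadjusted p under 0.05 and grey the rest. In F1 the netrin receptors and neuropilins all lie above 0, and in F3 the single red point is EPHA7 at -0.38.

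In the F1 punches no member passed the threshold, an adjusted p under 0.05 (limma, Benjamini-Hochberg over all genes), on the deposited scale, where 0.657% of genes passed. At an unadjusted p under 0.05, 21 members were higher and 2 lower, against 12.1% and 1.46% of all genes, and without sGC animals 4, 8 and 20 they were 15 and 3, against 8.01% and 1.17%. After scaling, 12 members passed the threshold, 11 higher and 1 lower, against 8.47% of genes higher and 8.86% lower. Without Veh animal 7, which had the largest total, NRP1, DCC, EPHB1, PLXNA2, PLXNA4 and UNC5D passed on the deposited scale. In that fit 474 genes passed, against 78 with all animals. Without Veh animal 11 the 3 members PLXNA2, PLXNA4 and UNC5D passed after scaling, where 904 genes passed, against 2058 with all animals. Over all genes this scaling changed the split of calls from 72 higher and 6 lower to 1006 higher and 1052 lower. Groups did not overlap for 1 member on the deposited scale (2.04% of all genes) and for 9 after scaling, a share near the 14.2% of all genes.

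Receptors of the class 3 semaphorins made up 4 of the 12 members past the threshold in F1 after scaling. NRP1, the ligand-binding co-receptor for class 3 semaphorins and VEGF, had 964, 1318, 858, 621 and 759 normalized counts in Veh and 1874, 1538, 1287, 1058 and 1288 in sGC, so that Veh animal 7 overlapped with 3 sGC animals. Its log2 fold change, 0.66 (standard error 0.17), did not pass (limma, adjusted p = 0.0768). Scaled, NRP1 rose by 51.2% (limma, log2 fold change 0.60, adjusted p = 0.0201). PLXNA4, a plexin that pairs with neuropilins, had 2482, 2224, 2365, 2373 and 2380 scaled counts in Veh and 2964, 3099, 2897, 3008 and 2786 in sGC. All 5 sGC animals lay above all 5 Veh animals, and the log2 fold change of 0.32 (standard error 0.040) passed (limma, adjusted p = 0.00132). The related PLXNA2 had 1059, 1055, 1092, 1100 and 1161 scaled counts in Veh and 1585, 1407, 1308, 1274 and 1306 in sGC. This rise, of 25.5%, was again without overlap (limma, adjusted p = 0.00622). PLXNA1 had 2614, 2444, 2660, 2722 and 2846 scaled counts in Veh and 3258, 3487, 3502, 3184 and 2727 in sGC, a rise of 21.3% (limma, adjusted p = 0.0206). Only sGC animal 20 lay within the PLXNA1 range of Veh.

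Without sGC animals 4, 8 and 20, the scaled log2 fold changes of PLXNA1, PLXNA2, PLXNA4 and UNC5D still passed the threshold, and the other 8 of the 12 members did not, though all 12 kept their direction. SLIT3, with a scaled log2 fold change of 0.39, NRP2 with 0.50 and PLXNB1 with 0.24 passed only in that comparison, where 7 members passed in all (11.3%, against 5.45% of all genes higher and 3.26% lower). On the deposited scale NTNG1 then passed, at -0.99 (limma, adjusted p = 5.551e-05). The remaining sGC animals had 854 and 864 normalized counts, against 1037 to 3519 in Veh. Because limma moderates each variance toward a trend over genes, this p-value does not measure the spread of NTNG1 alone. Scaled, NTNG1 did not pass in that comparison, at -1.085 (standard error 0.40, limma, adjusted p = 0.122). With each animal left out in turn, PLXNA2, PLXNA4 and UNC5D passed on the scaled values in 10 of 10 fits and NRP1 and PLXNA1 in 9.

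Among the ligands of the same system, SEMA3F and SEMA3C moved in opposite directions in F1. SEMA3F, a repellent ligand that uses neuropilin-2, had 510, 459, 493, 455 and 533 scaled counts in Veh and 615, 609, 594, 602 and 491 in sGC (log2 fold change 0.25, limma, adjusted p = 0.0438). The sGC animal at 491 was animal 20, which lay among the Veh animals. SEMA3C, another secreted class 3 semaphorin, was the member that fell, from 685, 767, 732, 885 and 670 scaled counts in Veh to 528, 619, 670, 631 and 495 in sGC (log2 fold change -0.35, limma, adjusted p = 0.0359). Its groups met within 1 count, with the lowest Veh animal just above the highest sGC animal. These calls were less stable than those of the plexins, since SEMA3C passed in 5 of 10 fits with an animal left out and SEMA3F in 2. SEMA3G had a deposited log2 fold change of 0.57 with an adjusted p of 0.178 (limma), and of 0.16 without sGC animals 4, 8 and 20. Membrane-bound semaphorins of classes 4 to 7 were higher in 11 of 12 cases, with a median of 0.21, and SEMA6D had the lowest p of them, at 0.30 (limma, adjusted p = 0.276), while SEMA4F stood at -0.10. Without the 3 animals 11 of 12 were again higher, with a median of 0.16, and SEMA7A turned from 0.41 to -0.058 and SEMA4F to 0.076. PLXNC1, the receptor of SEMA7A, was at -0.13, and at 0.25 without them.

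Netrin receptors were all 5 higher in F1, with a median log2 fold change of 0.33, and of 0.43 without sGC animals 4, 8 and 20, while after scaling UNC5B then turned to -0.058. DCC, the receptor through which netrin-1 attracts axons, had 352, 459, 357, 303 and 355 scaled counts in Veh and 474, 576, 520, 414 and 468 in sGC, a rise of 34.6% (limma, adjusted p = 0.0277). Veh animal 7 overlapped with sGC animal 16. UNC5D, a repulsive netrin receptor that also binds FLRT proteins, had 1429, 1591, 1452, 1295 and 1495 scaled counts in Veh and 1642, 1807, 1833, 1819 and 1673 in sGC. All sGC animals lay above Veh, and UNC5D rose by 20.9% (limma, adjusted p = 0.0103). Leaving out 1 animal at a time, DCC passed in 4 of 10 fits.

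The netrins themselves did not move together. NTN4, a secreted netrin found in basement membranes, had 391, 334, 318, 245 and 315 normalized counts in Veh and 643, 523, 398, 428 and 400 in sGC. It was the member without overlap on the deposited scale, at 0.57 on the log2 scale (limma, adjusted p = 0.0938), and scaled it rose by 41.8% (limma, adjusted p = 0.0286) and passed in 6 of 10 fits with an animal left out. NTNG1, a membrane-anchored netrin-G that binds the synaptic protein NGL-1, had 1379, 1812, 1567, 3519 and 1037 normalized counts in Veh and 1037, 1217, 854, 864 and 911 in sGC. After scaling its groups did not overlap, with 1223 to 4083 scaled counts in Veh and 818 to 1137 in sGC, but it did not pass. Veh animal 15 stood highest, and that animal also had the highest sum of thalamic and neighbouring diencephalon markers, 7533 against 2161 to 5451 in the other Veh animals. The part of these markers in the NTNG1 result was not tested. NTNG1 stood at -0.81 on the log2 scale (limma, adjusted p = 0.0764), and without Veh animal 15 at -0.55 (limma, adjusted p = 0.174). On the scaled values it passed without Veh animal 15 (limma, adjusted p = 0.0116). With single animals left out, NTNG1 passed in 3 of 10 fits on the deposited scale and in 2 of 10 after scaling.

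From the Slit and Robo family, 1 ligand and 1 receptor passed in F1 after scaling. SLIT2, a secreted repellent, had 1767, 1831, 1667, 1284 and 1726 scaled counts in Veh and 2012, 1849, 2060, 2029 and 2104 in sGC, a rise of 22.3% without overlap (limma, adjusted p = 0.0417). ROBO1, a receptor for Slits, had 1198, 1225, 1170, 1110 and 1170 scaled counts in Veh and 1785, 1459, 1268, 1329 and 1324 in sGC. All 5 sGC animals lay above Veh, and ROBO1 rose by 21.1% (limma, adjusted p = 0.0428). With single animals left out, SLIT2 passed in 3 of 10 fits and ROBO1 in 2. SLIT1 stood at 0.44 on the deposited scale (limma, adjusted p = 0.167), and ROBO3, an atypical Robo that does not bind Slits in mammals, had 0.57 (limma, adjusted p = 0.312). Without sGC animals 4, 8 and 20 they stood at 0.61 and 0.28.

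The Eph receptors and ephrins gave 1 call in F1. EPHB1, a receptor for ephrin-B ligands, had 589, 581, 530, 379 and 571 scaled counts in Veh and 755, 755, 677, 613 and 785 in sGC. No animals overlapped, and EPHB1 rose by 36.3% (limma, adjusted p = 0.0293), passing in 6 of 10 fits with an animal left out. EPHB6, a receptor without kinase activity, stood at -0.33 on the deposited scale (limma, adjusted p = 0.358) and EPHA5, an ephrin-A receptor, at -0.18. Without sGC animals 4, 8 and 20, EPHB6 turned to 0.063 (scaled, it stayed below 0) and EPHA5 was at -0.37. The ligands with the lowest p were EFNA5 at 0.23 and EFNB2 at 0.20. EPHA7, also an ephrin-A receptor, had 371, 336, 294, 240 and 277 normalized counts in Veh and 695, 486, 251, 233 and 463 in sGC (log2 fold change 0.38, limma, adjusted p = 0.497). Its 3 highest sGC values were those of animals 4, 8 and 20, and without them EPHA7 stood at -0.31 and 5 of 6 EphA receptors were lower, against 3 of 6 with all animals.

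In F1, sGC animals 4 and 8 also differed in glial and vascular markers. The oligodendrocyte marker sum was 103146 normalized counts in sGC animal 8 and 69452 in sGC animal 4, against 37765 to 47467 in Veh, and the endothelial sum was 12624 and 13918 against 6205 to 9617. In sGC animal 20 these sums were 48663 and 7546. All 9 PVN markers were lower in sGC, 6 of them at an unadjusted p under 0.05. Their part in the values of the axon guidance genes was not tested.

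**Figure D2:**
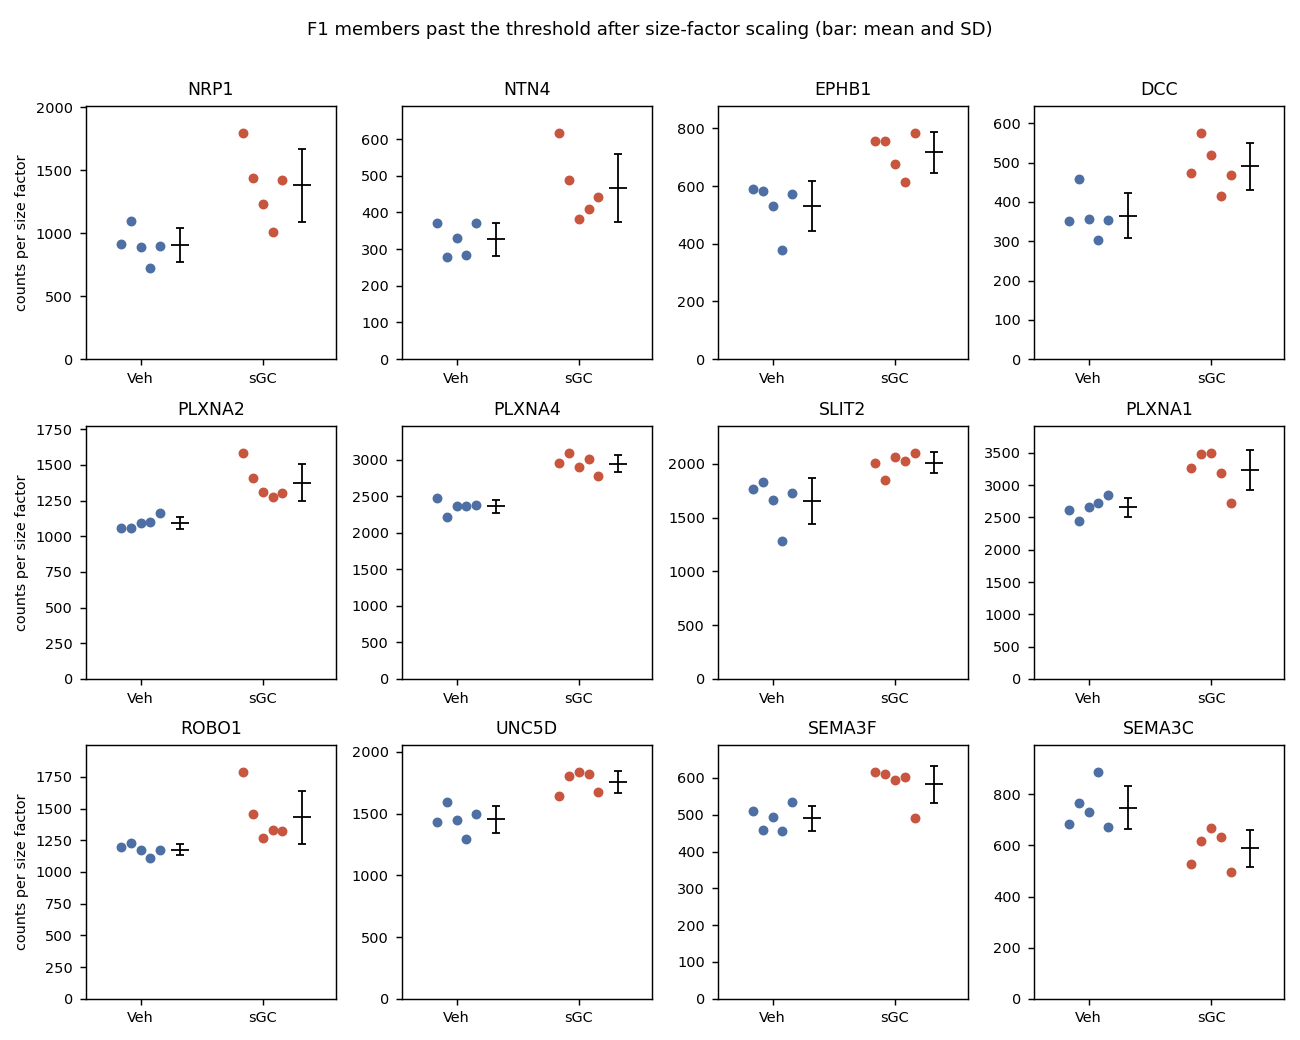
Counts per size factor of the 12 members past the threshold in F1 after scaling, for each Veh and sGC animal, with bars for the mean and SD (n = 5 per group). The points of both groups are apart for PLXNA4, PLXNA2, EPHB1, NTN4, SLIT2, ROBO1, UNC5D and SEMA3C, while NRP1, DCC, PLXNA1 and SEMA3F overlap.

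In F2, 0 of 60 members and 0% of genes passed the threshold (limma). At an unadjusted p under 0.05, 9 members were lower (against 9.17% of all genes) and 0 higher (against 2.49%). On the deposited scale groups did not overlap for 2 members, SEMA7A and UNC5B (2.4% of all genes).

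SEMA7A, a semaphorin held to the membrane by a lipid anchor that signals through integrins and PLXNC1, had 464, 408, 511, 525 and 504 normalized counts in F2 Veh and 333, 289, 385, 298 and 347 in sGC. The highest sGC animal lay below the lowest Veh animal. Veh animals averaged 482 ± 47.4 (SD, n = 5) and sGC animals 330 ± 38.8 (SD, n = 5), so SEMA7A stood at -0.55 on the log2 scale (standard error 0.10, limma, adjusted p = 0.0622). UNC5B, a netrin receptor of neurons and blood vessels, had 793, 966, 789, 764 and 839 normalized counts in Veh and 617, 581, 679, 552 and 610 in sGC. Every sGC animal lay below every Veh animal here too (log2 fold change -0.45, standard error 0.085, limma, adjusted p = 0.0622), or scaled -0.37 (limma, adjusted p = 0.134). With quantile normalization SEMA7A passed (limma, adjusted p = 0.0479), as the only member. On the deposited scale both genes passed without Veh animal 22 and without Veh animal 28, and SEMA7A passed without sGC animal 30.

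The other 7 members at an unadjusted p under 0.05 in F2 overlapped between the groups on the deposited scale. After scaling EPHB3 did not, with 324 to 345 scaled counts in Veh and 269 to 319 in sGC. PLXNB3, a plexin of oligodendrocytes that binds SEMA5A, had 667, 902, 597, 634 and 671 normalized counts in Veh and 463, 503, 627, 518 and 582 in sGC (log2 fold change -0.36, limma, adjusted p = 0.268). SEMA4C, a membrane-bound ligand of PLXNB2, had 767, 782, 737, 678 and 715 in Veh and 616, 615, 707, 601 and 597 in sGC (log2 fold change -0.23, limma, adjusted p = 0.266). In both genes a single sGC animal, 30, lay within the Veh range. SEMA6A, SEMA3E, EPHB3, ROBO1 and PLXND1 had log2 fold changes of -0.29, -0.49, -0.23, -0.22 and -0.28. NTNG2, the second netrin-G, was at -0.46 and EPHB4 at -0.40, both with unadjusted p above 0.05. At the other end stood PLXNB2 and SLIT2, each at 0.23, EFNA5 at 0.16, EPHB6 at 0.15, PLXNA4 at 0.14 and NRP2 at 0.12, none of which passed. Scaled, PLXNA4 did not overlap, with 2029 to 2554 scaled counts in Veh and 2631 to 3079 in sGC. The share of all genes without overlap after scaling was not counted in F2. EPHA7 had 374, 218, 430, 336 and 362 normalized counts in F2 Veh and 350, 329, 403, 221 and 327 in sGC, with the groups covering nearly the same range and a log2 fold change of -0.07. By family, 10 of 11 semaphorins of classes 4 to 7 and 4 of 4 Robo receptors were lower in F2, where 75.5% of all genes were lower, and after scaling 7 of 11 and 3 of 4 were. Slits were 3 of 3 higher on both scales, with EFNB2 and EPHA10 both at -0.14 as the lowest p among ephrin-B ligands and EphA receptors.

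Oligodendrocyte markers moved in F2 alongside these members. All 7 were lower in sGC at an unadjusted p under 0.05, with a median log2 fold change of -0.87, and their sum did not overlap between the groups, with 130419 to 236881 normalized counts in Veh and 68680 to 111095 in sGC. All 4 oligodendrocyte precursor markers were lower, 3 of them at an unadjusted p under 0.05, and 8 of 9 PVN markers were higher, 5 of them at that level. Endothelial markers were 8 of 8 lower, 4 of them at that level, with a median of -0.34 and sums of 7441 to 12163 in Veh and 6738 to 8429 in sGC. Ependymal markers were 5 of 5 higher, 2 of them at that level, with a median of 1.00 and overlapping sums. Of the neuron, microglia, mural, and fibroblast and meningeal markers, 0 of 5, 0 of 5, 0 of 4 and 0 of 2 were higher, where 75.5% of all genes were lower. Their part in the SEMA7A, UNC5B, PLXNB3 and SEMA6A values was not tested.

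**Figure D3:**
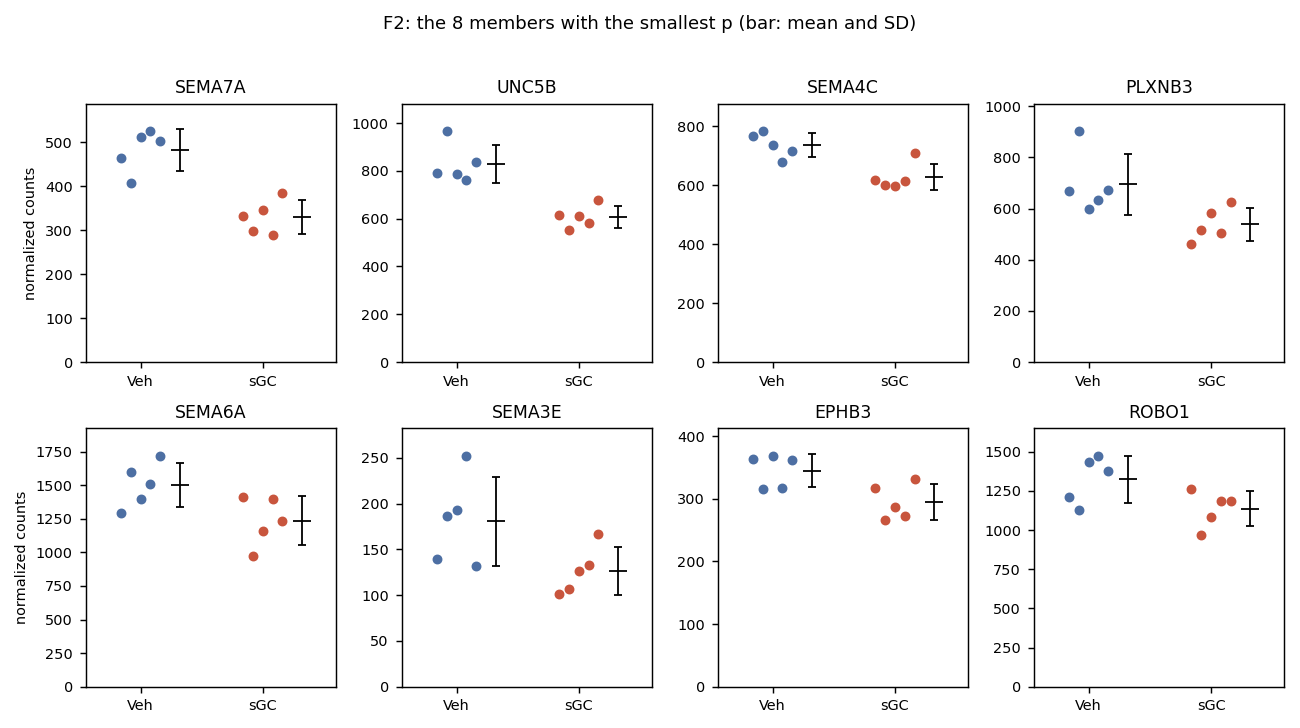
Normalized counts of the 8 members with the smallest p in F2 for each Veh and sGC animal, with bars for the mean and SD (n = 5 per group). Only SEMA7A and UNC5B show no overlap, and sGC animal 30 is the highest sGC point in SEMA4C and PLXNB3.

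In F3 a single member, EPHA7, passed the threshold, against 0.0506% of all genes on the deposited scale and 0.0421% after scaling. EPHA7, an ephrin-A receptor of postsynaptic membranes and developing projections, had a lowest, median and highest value of 401, 431 and 475 normalized counts in Veh and of 298, 335 and 367 in sGC. The 6 sGC animals all lay below the 6 Veh animals, and non-overlap of this kind was found in 1.21% of all genes and in no other member. Its mean fell from 434 ± 25.1 (SD, n = 6) to 334 ± 27 (SD, n = 6), by 23.2% (log2 fold change -0.38, standard error 0.057, limma, adjusted p = 0.0305). This gene was known from earlier results of these data before it was described here.

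Its call depended on the model more than its size did. With the sequencing batch as a covariate the log2 fold change was -0.38 (limma, adjusted p = 0.135), and in the first batch alone, with 6 Veh and 4 sGC animals, the adjusted p was 0.119 (limma). With the 2 directions removed by the normalization as covariates it was 0.191 (limma). Both second-batch sGC animals, at 314 and 350 normalized counts, lay within the range of the other sGC animals. Leaving out each animal in turn gave log2 fold changes of -0.41 to -0.35 and adjusted p of 0.0228 to 0.0931 (limma), under the threshold in 5 of 12 fits. It was lost without Veh animals 1, 5, 9, 13 and 17 and sGC animals 6 and 21. Summed marker levels overlapped between the F3 groups for all 12 cell type and region lists. At an unadjusted p under 0.05, 3 of 7 mural markers were higher and 0 lower (against 6.19% and 6.92% of all genes). Of 7 thalamic and neighbouring diencephalon markers, 2 were lower and 0 higher at that level. The part of these markers in the EPHA7 value was not tested.

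At an unadjusted p under 0.05 in F3, 12 members were lower (against 6.92% of all genes) and 3 higher (against 6.19%). Among the receptors, NRP1 had 1033, 1267 and 1337 normalized counts in Veh and 977, 1014 and 1172 in sGC (lowest, median, highest) (log2 fold change -0.24, limma, adjusted p = 0.129), and it passed only without Veh animal 14 (limma, adjusted p = 0.0414). EPHA4, a receptor that binds both ephrin classes, had 875, 927 and 940 in Veh and 714, 791 and 932 in sGC (log2 fold change -0.20, limma, adjusted p = 0.138). PLXNA4 stood at -0.17 on the log2 scale (limma, adjusted p = 0.17), with a lowest, median and highest value of 2633, 2819 and 3187 in Veh and of 2314, 2531 and 2729 in sGC. These 3 receptors thus stood lower in sGC with overlapping groups. The Robo receptor ROBO3 was at -0.23, the netrin receptors DCC and UNC5C at -0.17 and -0.14, and the plexin PLXNA3 at -0.09.

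The ligands below the same unadjusted level in F3 were EFNB2, NTN5, NTNG2 and SEMA4G. EFNB2, the transmembrane ephrin that marks arterial vessels and also acts in neurons, had 656, 697 and 755 normalized counts in Veh and 555, 630 and 668 in sGC (log2 fold change -0.17, limma, adjusted p = 0.176). NTN5, a small netrin, was at -0.38 with 107, 129 and 152 in Veh and 76, 95.5 and 121 in sGC. NTNG2 was at -0.63 with 108, 141 and 221 in Veh and 47, 100 and 155 in sGC, and SEMA4G was at -0.11. On the higher side were SLIT3 at 0.19, PLXNB3 at 0.13 and PLXNB1 at 0.10. PLXNB1, the receptor of SEMA4D, had 9002, 9523 and 9796 in Veh and 9710, 10153 and 10476 in sGC (limma, adjusted p = 0.145). The remaining members with the lowest p of a family or a large change were SEMA7A at -0.31, SEMA3E at -0.18, EPHB1 at -0.12, EFNA2 at -0.09, NTNG1 at 0.11, SEMA6B at 0.07 and EPHB3 at 0.07, with unadjusted p above 0.05.

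**Figure D4:**
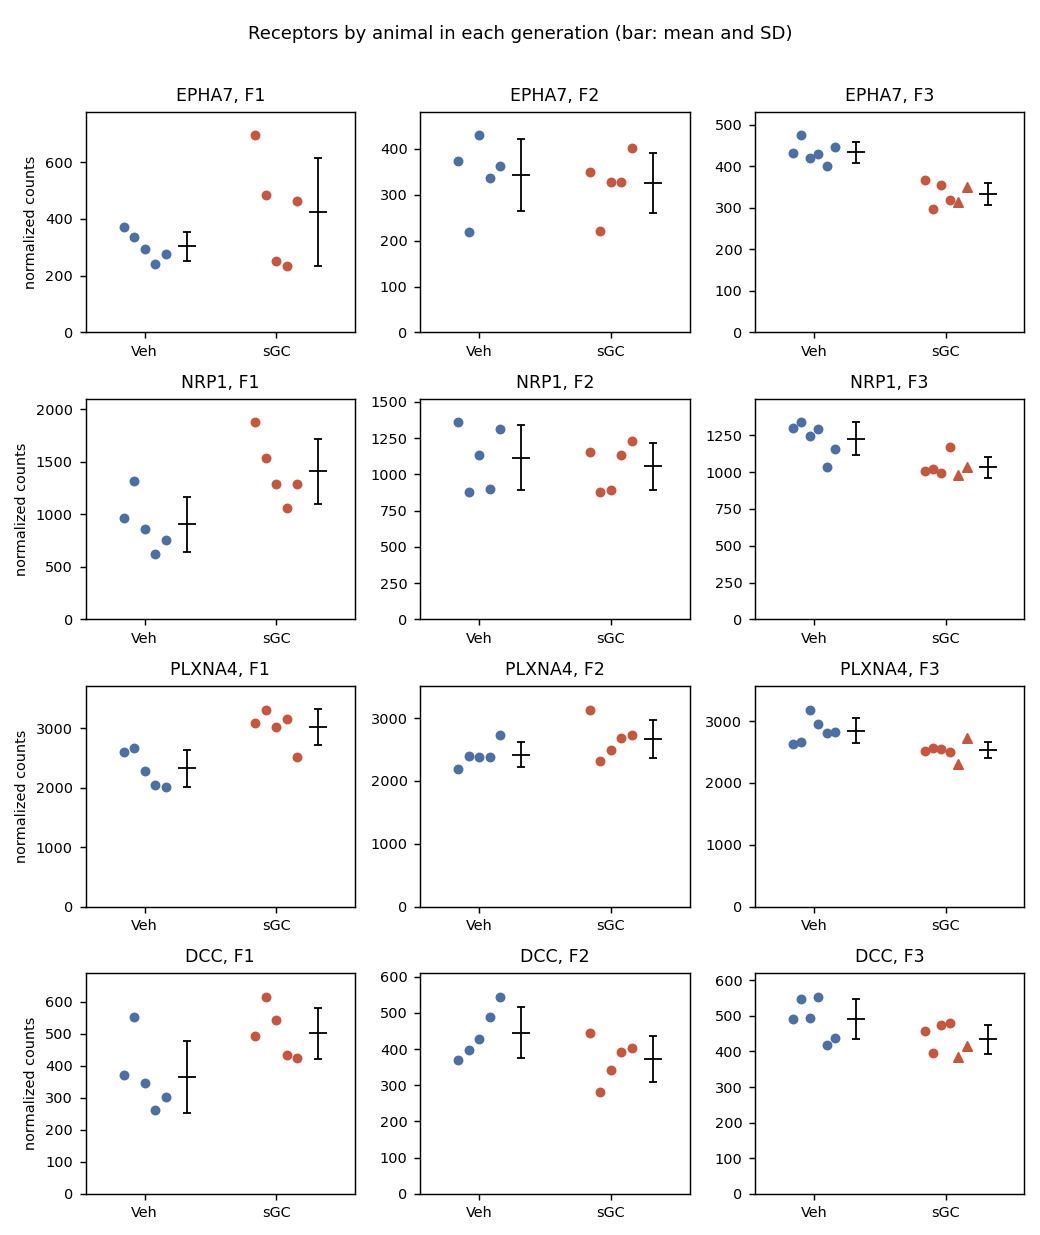
Normalized counts of EPHA7, NRP1, PLXNA4 and DCC in each animal of F1, F2 and F3, Veh beside sGC, with bars for the mean and SD (n = 5, 5 and 6 per group) and triangles for the second sequencing batch. EPHA7 separates the groups in F3 alone, and NRP1 lies mostly higher in F1 sGC and mostly lower in F3 sGC; levels are set within each generation's own table.

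The F1 effect differed from the F2 effect for 13 of 60 members (limma, contrast of the log2 fold changes, adjusted over 11429 genes tested in all 3 tables), against 7.64% of those genes. After scaling it was 14 of 60 (23.3%, against 14.3% of all genes). All 13 differences on the deposited scale were positive, F1 minus F2. On that scale 63.8% of all genes were higher in F1 and 75.5% lower in F2. The share of positive differences over all genes was not counted. Of the members past the threshold after scaling, EPHB6 had a negative difference, at -0.62 (limma, adjusted p = 0.0207). The joint fit pools 1 variance per gene over the 3 generations, and animals of a group varied less in F3 than in F1 or F2. The limma p-values of contrasts with F1 may therefore be too low. Among semaphorins and their receptors, SEMA7A differed by 0.96, from 0.41 in F1 to -0.55 in F2 (limma, adjusted p = 0.0159). For PLXNB3 the difference was 0.81 (limma, adjusted p = 0.00478) and for SEMA4C 0.53 (limma, adjusted p = 0.0109). SEMA6A, SEMA3F, SEMA3G, SEMA6D and NRP1 differed by 0.64, 0.55, 0.86, 0.41 and 0.73. Of the netrin system UNC5B differed by 0.62 (limma, adjusted p = 0.0088), NTN4 by 0.77 and DCC by 0.75, and of the rest ROBO1 by 0.55 and EPHB4, a receptor of EFNB2 on veins, by 0.88.

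Few of these differences between F1 and F2 passed once the F1 animals with low PVN marker sums were left out. Without sGC animals 4, 8 and 20, SEMA3F alone passed, at 0.63 (limma, adjusted p = 0.0328). All the differences stayed positive, with DCC at 0.72 (limma, adjusted p = 0.0975), UNC5B at 0.49 (limma, adjusted p = 0.0558) and SEMA7A at 0.49 (limma, adjusted p = 0.259). That fit has fewer F1 sGC animals and so less precision, and a lost call there need not mean a smaller difference. With single animals left out the count ranged from 5 members, without F1 Veh animal 15 or F2 sGC animal 24, to 20, without F1 Veh animal 7. The share of all genes in these fits is not given. In an exact permutation test of the treatment labels within generations 0 of 60 members passed after adjustment, against 23 of 11429 genes. At an unadjusted p under 0.05, 5 members went in opposite directions in F1 and F2 (PLXNB3, ROBO1, SEMA4C, SEMA6A and SEMA7A), against 1.66% of the genes tested in both.

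NRP1 and PLXNA4 were the 2 members whose F1 effect differed from that in F3, where 3.13% of all genes did. PLXNA4 differed by 0.55 (limma, adjusted p = 0.00619), and without the 3 F1 animals by 0.59 (limma, adjusted p = 0.0216). For NRP1 the difference was 0.90 (limma, adjusted p = 0.0124), and 0.66 without those animals (limma, adjusted p = 0.143). Without F1 Veh animal 7 there were 13 such members, and in no fit with an animal left out fewer than 2, with the share of all genes not given. After scaling 10 of 60 passed, near the 17.6% of all genes. In the exact permutation test neither passed on the deposited scale (adjusted p = 0.0561 for PLXNA4 and 0.0889 for NRP1), where 57 of 11429 genes did. On the scaled values 7 members passed in that test, PLXNA4 and NRP1 (adjusted p = 0.00538 and 0.0106) and also DCC, ROBO1, EPHB1, NTNG1 and SEMA6A. The share of all genes that passed it was not counted. Going in opposite directions at an unadjusted p under 0.05 in F1 and F3 were 4 members (DCC, NRP1, PLXNA4 and ROBO3), against 1.94% of genes, and PLXNB3 went the same way in both, as did 0.39% of genes.

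Between F2 and F3, 0 of 60 members differed on the deposited scale (0.00875% of genes). Scaled, PLXNA4 differed by 0.38 (limma, adjusted p = 0.0327), against 0.157% of genes. When the 3 F1 sGC animals were left out of the joint fit, which also changes the pooled variance, UNC5B differed by -0.48 (limma, adjusted p = 0.0326). PLXNB3, lower in F2 and higher in F3, was the member in opposite directions at an unadjusted p under 0.05, as 0.876% of genes were.

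**Figure D5:**
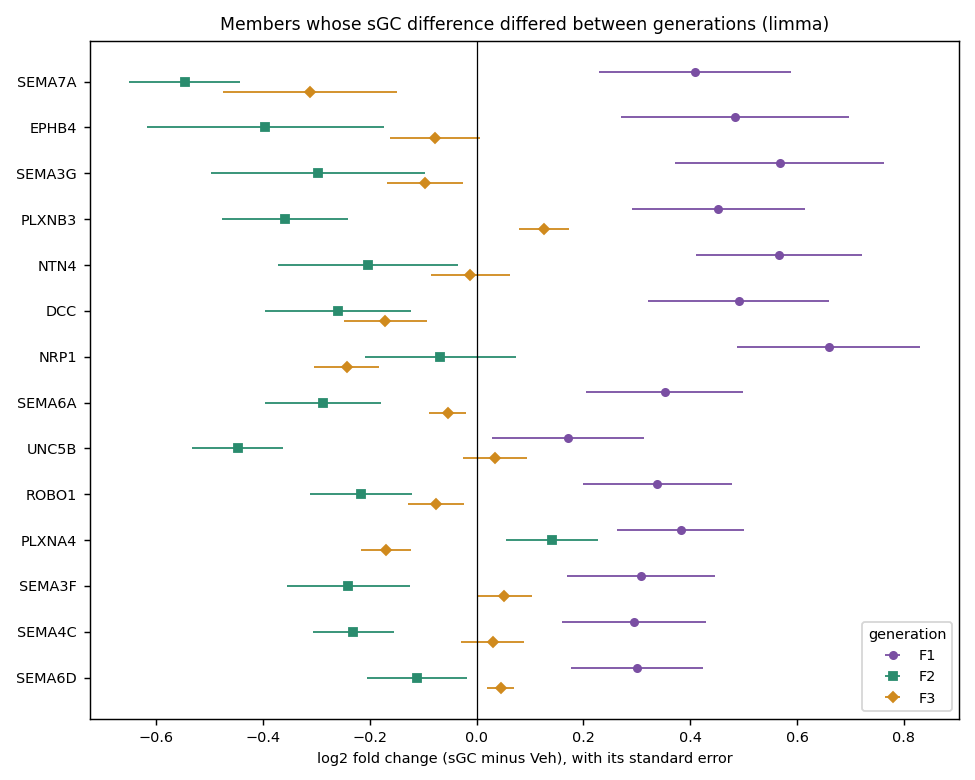
Log2 fold change (sGC minus Veh, log2(normalized counts + 1) scale) with its standard error in F1, F2 and F3 for the 14 members whose effect differed between F1 and another generation. The F1 points lie highest, with SEMA7A going from 0.41 in F1 to -0.55 in F2 and NRP1 from 0.66 in F1 to -0.24 in F3.

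The intracellular and surface partners of the same pathways were described from lists taken by function. No partner gene passed on the deposited scale in F1, F2 or F3 with all animals, and DSCAML1 passed in F1 without sGC animals 4, 8 and 20 (log2 fold change 0.70, limma, adjusted p = 0.0287). In F1, 8 of 12 netrin partners were higher at an unadjusted p under 0.05 (against 12.1% of all genes). The same 8 rose after scaling (against 8.47%), NEO1, DSCAM, DSCAML1, PTK2, TRIO, DOCK1, LRRC4 and LRRC4C. DSCAML1, an adhesion protein related to DSCAM, stood at a scaled log2 fold change of 0.50 and DOCK1, an activator of RAC1, at 0.35. Without the 3 animals NEO1, DSCAM, DSCAML1, DOCK1 and LRRC4 still passed after scaling. Of 18 Slit and Robo partners, 6 rose after scaling, among them the kinases ABL1 at 0.32 and ABL2 at 0.31, and SDC2, a syndecan, fell, at -0.29. Of 25 semaphorin and plexin partners 3 rose and 2 fell, with ARHGEF12, the RhoA exchange factor that binds B-class plexins, at 0.38 and CFL1, which cuts actin filaments, at -0.23. Of 14 Eph partners KALRN at 0.33 and SIPA1L1 at 0.30 rose and PICK1 at -0.19 fell, and of 4 small GTPases CDC42 fell, at -0.22. Over all lists 19 of 73 partners rose after scaling (26%, against 8.47% of all genes) and 5 fell (6.85%, against 8.86%), and without sGC animals 4, 8 and 20 it was 11 and 3 of 72 (15.3% and 4.17%, against 5.45% and 3.26%). In F2, 8 of 72 partner genes (11.1%, near the 9.17% of all genes) were lower and 0 higher at an unadjusted p under 0.05, with CNTN2, an adhesion molecule of axons and myelin, at -0.61. In F3, 7 of 72 were higher and 6 lower at that level (9.72% and 8.33%, against 6.19% and 6.92% of all genes).

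Spread between animals of a group was described by the coefficient of variation. The median over the members was 18.1% in F1 Veh and 17.6% in F1 sGC, against 16.4% and 11.6% for all genes, and 7.86% and 7.80% in F3 against 5.70% and 5.43%. The netrin-Gs were among the most variable, NTNG1 with 52.0% in F1 Veh and 61.2% in F2 Veh. SEMA3B, a class 3 semaphorin, had 1792 to 3051 normalized counts in F1 and 3 to 11 in F3, where it was not tested, and it was not analysed in F2. SEMA6C, a membrane-bound semaphorin, was analysed in F1 alone. The tables were normalized separately, so this difference in level was not tested.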

How the data were processed

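Reads of mRNA-enriched libraries were aligned to the guinea pig assembly cavPor3 with TopHat2 and counted per gene by the authors, who removed outliers, corrected the F3 batches with ComBat and applied the residual method of RUVSeq. The deposited values, recorded as a score since they have no fixed range and are no raw reads, are the authors' normalized counts rounded to whole numbers, and the text calls them normalized counts. Near-zero singular values showed that this took out 1 direction of variation in F1, 1 in F2 and 2 in F3. The tables also hold the authors' own comparisons from edgeR (log2 fold change, likelihood ratio, dispersion, p-value and false discovery rate), which were not used. Re-sequenced F3 Veh libraries were not used here.

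Each generation was fitted on log2(value + 1), unscaled, using limma 3.58.1 (moderated statistics with a mean trend, R 4.3.3); genes needed a mean of 10 or more, and tests were two-sided, with Benjamini-Hochberg adjustment over all genes and a threshold of 0.05. Differences between generations were contrasts of 1 joint limma fit. Groups came from the labels. The rule and lists were chosen with earlier results of these data known. Named are members past the threshold on either scale, the 6 largest rises and 6 largest falls per generation with a mean of at least 50, the lowest p of each family and EPHA7. Alternatives were size factors, quantile normalization, other filters, eBayes without trend, permutation, batch terms and leaving out animals. Size factors combined with the removed directions or with the permutation test, and leaving out F1 sGC animals 4, 8 and 20, were added after seeing the data. The fits were tested on simulated data. Figures were drawn with Python 3.11.15 and matplotlib 3.10.9. No sequences are shown, and the number of animals limits the precision, since depth in reads cannot be had from these values.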

Additional observations from a re-analysis of the deposited data

Results flagged for a closer look

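Of 148 groups of animals examined, 9 had 1 animal apart from the others, and chance gives about 7.4, or 1 in 20. On the log2(normalized counts + 1) scale these were, in F1, SLIT1 in Veh animal 15 at 10.72, SEMA3G in Veh animal 7 at 7.69, and SEMA3F at 8.80 and PLXNA1 at 11.27 in sGC animal 20. In F2 they were SEMA4C in sGC animal 30 at 9.47, SEMA6D in Veh animal 28 at 12.24 and PLXNB3 in Veh animal 23 at 9.82. In F3 they were SEMA4G in sGC animal 2 at 8.99 and NRP1 in sGC animal 18 at 10.20.

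The sGC effect differed between generations for these members, as a difference of log2 fold changes with an adjusted p under the threshold (limma). Between F1 and F2 it was SEMA7A at 0.96, EPHB4 at 0.88, SEMA3G at 0.86, PLXNB3 at 0.81, NTN4 at 0.77, DCC at 0.75, NRP1 at 0.73, SEMA6A at 0.64, UNC5B at 0.62, ROBO1 at 0.55, SEMA3F at 0.55, SEMA4C at 0.53 and SEMA6D at 0.41. Between F1 and F3 it was NRP1 at 0.90 and PLXNA4 at 0.55. Without the 3 F1 sGC animals with low PVN marker sums, SEMA3F and PLXNA4 passed.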

How the results depend on the processing

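In F1 the number of genes past the threshold was 78 on the deposited scale, 2058 with size factors, 2083 with quantile normalization, 30 with eBayes without trend, 1345 with size factors and the removed directions, and 15 to 474 with single animals left out, and the members past it numbered 0, 12, 13, 0, 8 and 0 to 6. Without sGC animals 4, 8 and 20 there were 163 genes and 1 member, and with size factors 1031 and 7. There EPHA7 turned to -0.31 (size factors -0.41), SEMA7A to -0.058 (-0.16), PLXNC1 to 0.25 (0.15), EPHB6 to 0.063 and SEMA4F to 0.076, and UNC5B to -0.058 with size factors. In F2, quantile normalization gave 42 genes and 1 member, a mean of at least 50 gave 17 genes, and single animals left out 0 to 114 genes and 0 to 2 members. F2 EPHA7 and NRP1 lay near 0 and turned with size factors, with or without the removed directions, to 0.0046 and 0.0058, and ranged from -0.22 to 0.064 and from -0.15 to 0.0088 with single animals left out. In F3 there were 10 genes with eBayes without trend, 1 with the removed directions, with or without size factors, 3 with batch as a covariate, 2 in the first batch alone and 1 to 15 with single animals left out. Members numbered 0 under the removed directions, the batch covariate and the first batch alone, and 0 to 2 with single animals left out. Members whose effect differed between F1 and F2 numbered 13, 0 with exact permutation, also with size factors, 1 without the 3 F1 animals and 5 to 20 with single animals left out. For F1 and F3 they were 2, 10 with size factors, 0 with exact permutation, 7 with permutation and size factors, 1 without the 3 animals and 2 to 13 with single animals left out. For F2 and F3 they were 0, and 1 with size factors, with permutation and size factors, and without the 3 animals. No paired analysis was possible because the groups compared share no replicate numbers. The cause of these changes was not tested. Precision is limited by 5 or 6 animals per group, and no interval from read counts can be given.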
